A study of Homo sapiens with 6 samples.

Results

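The genes described here are the 5 subunits of the transcription factor NF-kB (NFKB1, NFKB2, REL, RELA and RELB), the inhibitor genes NFKBIA and TNFAIP3, and the target genes TNFAIP2, BIRC3 and ICAM1. They were taken by gene symbol as a list of 10 genes, and 9 of them were measured among 18404 genes; BIRC3 is not analysed here. Values came from whole-transcript Affymetrix arrays of total RNA from H69M and from H69, with 3 arrays of each line. Both are cultured human small cell lung cancer lines. H69 is known for its neuroendocrine character and for growth in suspension. How H69M was made is not stated in the labels, nor is it stated whether replicates came from separate cultures. No treatment is named for either line. Every value is a log2 RMA value, a level that was normalized across the arrays by the submitters, and every difference is H69M minus H69 on that scale.

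NF-kB is a family of dimers that rest in the cytoplasm, held there by IkB proteins. In the canonical pathway, receptors for tumour necrosis factor, interleukin-1 or microbial products activate the IKK kinase complex, IkB is degraded, and dimers such as p50 with RelA enter the nucleus. In the non-canonical pathway the kinase NIK leads to processing of the NFKB2 precursor p100 to p52, which pairs with RelB. Activity of these proteins is set largely by degradation, processing and nuclear entry, none of which an RNA array measures, whereas several of the genes (NFKBIA, TNFAIP3, BIRC3, ICAM1, NFKB1, NFKB2, RELB) are themselves known targets of the factor.

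The DNA before the start sites of 4 of the genes is shown. They are the genes with the largest differences in the set (ICAM1, NFKB1 and TNFAIP3) and NFKBIA, an inhibitor gene that did not pass. The windows are the 250 bases before a RefSeq start (assembly GRCh38.p14), 5′ to 3′ on the strand of the gene: ICAM1 at chr19:10270870-10271119 (plus strand), NFKB1 at chr4:102501109-102501358 (plus strand), TNFAIP3 at chr6:137867009-137867258 (plus strand) and NFKBIA at chr14:35404750-35404999 (minus strand). Capitals mark letters that matched, on either strand, the 10-letter kappaB consensus or the 9 letters GGAAATTCC, which were chosen after the windows had been seen.
ICAM1: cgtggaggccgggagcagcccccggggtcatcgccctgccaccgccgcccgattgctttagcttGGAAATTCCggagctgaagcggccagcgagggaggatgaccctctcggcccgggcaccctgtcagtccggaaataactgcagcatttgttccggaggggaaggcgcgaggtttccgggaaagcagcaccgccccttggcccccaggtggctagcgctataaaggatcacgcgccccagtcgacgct
NFKB1: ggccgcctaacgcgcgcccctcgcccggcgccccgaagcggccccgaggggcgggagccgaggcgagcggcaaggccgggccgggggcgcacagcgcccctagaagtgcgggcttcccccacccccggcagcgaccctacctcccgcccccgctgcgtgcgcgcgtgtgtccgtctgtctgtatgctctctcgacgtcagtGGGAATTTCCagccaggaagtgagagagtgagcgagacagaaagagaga
TNFAIP3: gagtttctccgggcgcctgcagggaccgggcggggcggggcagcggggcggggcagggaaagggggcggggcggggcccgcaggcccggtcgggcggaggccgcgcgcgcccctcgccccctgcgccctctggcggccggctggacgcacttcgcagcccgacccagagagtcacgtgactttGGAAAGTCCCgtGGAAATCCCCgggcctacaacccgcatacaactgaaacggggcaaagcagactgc
NFKBIA: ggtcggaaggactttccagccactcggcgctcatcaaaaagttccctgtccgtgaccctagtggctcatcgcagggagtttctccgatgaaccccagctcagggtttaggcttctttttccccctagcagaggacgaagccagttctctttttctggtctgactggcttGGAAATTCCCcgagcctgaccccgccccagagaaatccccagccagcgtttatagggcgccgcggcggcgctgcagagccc

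RefSeq windows of 300 bases, which add 50 bases after the start, were on hand for 9 of the 10 genes, 13 windows in all; RELB had none in the table used. The kappaB consensus was found in windows of 6 genes (NFKB1, NFKB2, REL, NFKBIA, TNFAIP3 and BIRC3), and in 5.91% of all 35116 windows. A gene can have several windows. Counted by gene, 1212 of 14230 measured genes with a window held the consensus in any window, and 81 held the 9 letters. The 9 letters were found in 4 genes (ICAM1, NFKBIA, REL and NFKB1) and in 0.461% of all windows; in NFKB1 they stand on the other strand, as GGAATTTCC. In 3 of the 4, all but ICAM1, they lie inside a match to the longer consensus, so the 2 searches overlap. TNFAIP3 has a pair of consensus matches, 67 and 55 bases before its start. Matches in REL (chr2:60881518-60881546, plus strand) and at the second start of NFKB2 (chr10:102394462-102394490, plus strand) are given with their flanks for comparison.
REL: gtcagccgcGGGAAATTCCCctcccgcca
NFKB2: aaacgtcatGGGAATTCCCCcctccgggg

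The arrays of the lines were distinct. Medians of the arrays ran from 6.43 to 6.48 over the whole table, the lowest correlation across genes between replicates of a line was r = 0.995, and pairs of unlike arrays had 0.938 to 0.950; genes are not independent replicates. Of 10 measured neuroendocrine markers, 0 were higher and 9 lower in H69M, 4 of them by at least 2-fold, and their mean level per array was 8.94 to 9.30 in H69M and 9.91 to 9.95 in H69. Among them NCAM1, a cell adhesion gene, and CHGB, a secretory granule gene, had differences of -1.35 and -1.14; they were named with their values known. Of the measured leukocyte markers, 14 of 14 had levels below the median of all genes in the mean over both lines, and 1 was higher and 4 lower in H69M. Of 10 endothelial markers, 4 were higher, 1 was lower and 5 were neither. The mean levels of 7 of them over both lines were below the 25th percentile of all genes. TEK, named with its value known, had the largest of their differences, 3.28. Among all genes, 21.0% were higher in H69M and 23.2% lower.

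In H69M, 6 of the 9 measured NF-kB genes were higher than in H69, 0 were lower and 3 did not pass the test. The genes were chosen with earlier results of these data known. The shares of all genes set beside these counts are therefore descriptions and add no support. The test was limma over all genes with a Benjamini-Hochberg adjusted p threshold of 0.05; 21.0% of all genes were higher in H69M by this rule, 23.2% were lower and 44.2% differed in either direction. At least 2-fold differences were found in 3 of the 9 genes, ICAM1, NFKB1 and TNFAIP3, against 5.56% of all genes. In 7 of the 9 genes every H69M array lay above every H69 array, as in 25.8% of all genes. The median difference was 0.58 over the 9 genes and -0.041 over all genes. H69M replicate 3 was the highest H69M array in 7 of the 9 genes, in 30.7% of all genes and in 41.1% of the 3866 genes that were higher in H69M. The plot of the 9 genes on each array shows these values.

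**Figure D1:**
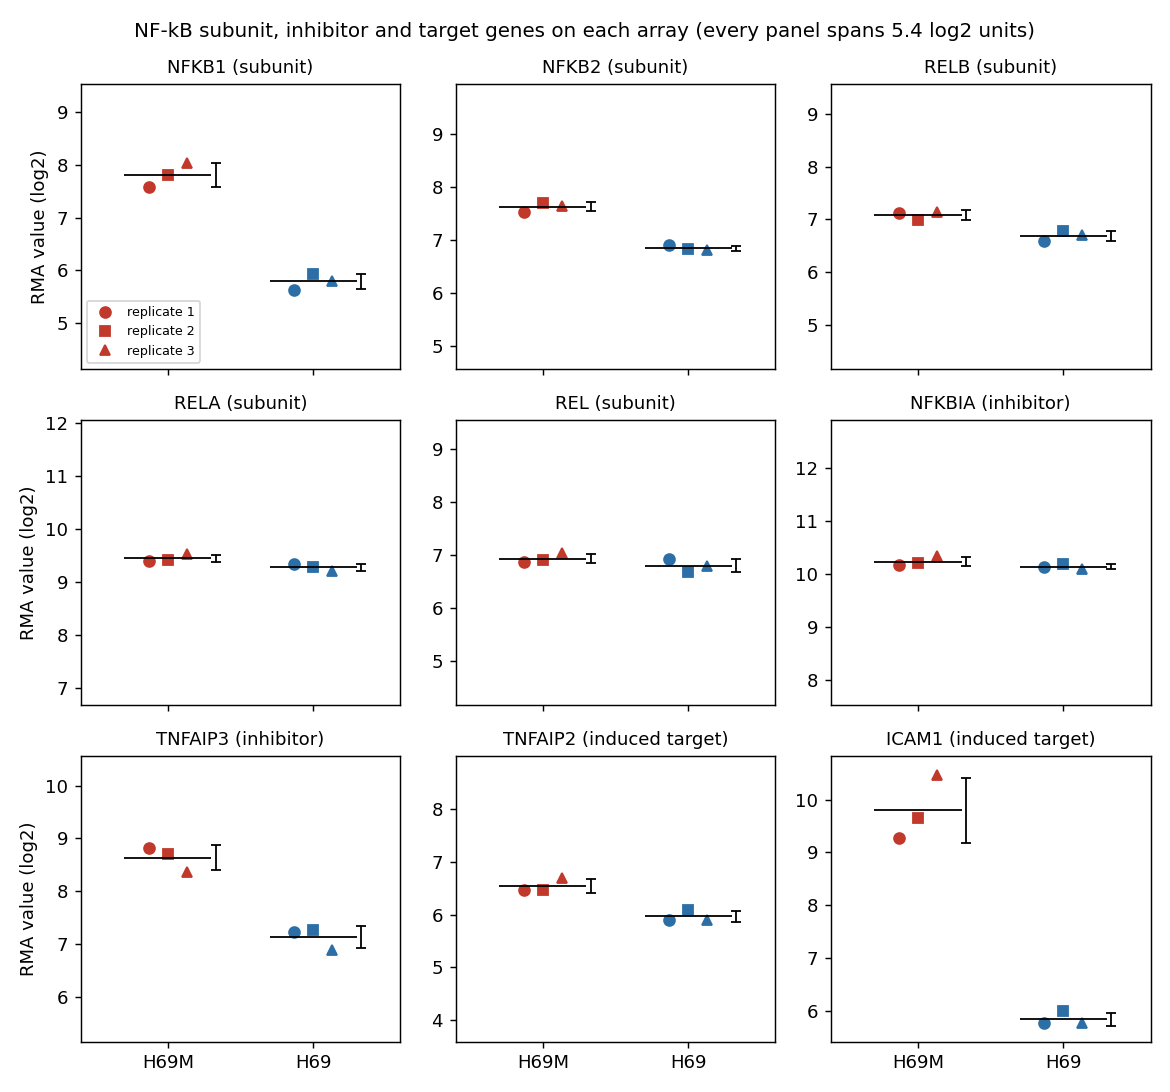
Log2 RMA values (vertical axis) of the 9 measured NF-kB genes on the 3 H69M arrays (red) and the 3 H69 arrays (blue), with the mean as a line and the SD as a bar at its right. All panels span the same number of log2 units; the H69M arrays of ICAM1, NFKB1 and TNFAIP3 stand well above those of H69, while NFKBIA and REL overlap.

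Of the 5 subunit genes, 3 rose, and these were the pair that encode precursors, NFKB1 and NFKB2, and RELB. NFKB1 encodes p105, the precursor of p50. Its level (probe set 8096635) was 7.58, 7.80 and 8.03 in H69M, against 5.64, 5.93 and 5.81 in H69. The lowest H69M array was thus well above the highest H69 array. The difference was 2.01 ± 0.12 (SE), a 4.03-fold higher level in H69M with a 95% interval of 3.30 to 4.92 (limma, Benjamini-Hochberg adjusted p = 8.30e-06), and it exceeded the difference of 97.7% of all genes.

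NFKB2, which encodes p100 and p52, rose by less than NFKB1. Its level was 7.54, 7.71 and 7.65 in H69M, against 6.90, 6.83 and 6.81 in H69. The arrays of each line lay close together and the lines did not overlap. The difference was 0.78 ± 0.066 (SE), or 1.72-fold with a 95% interval of 1.55 to 1.91 (limma, Benjamini-Hochberg adjusted p = 4.21e-05).

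RELB, the partner of p52 in the non-canonical pathway, had the smallest of the differences that passed. Its level was 7.12, 6.99 and 7.15 in H69M, against 6.59, 6.78 and 6.70 in H69. The lines did not overlap, although the lowest H69M and the highest H69 array were near each other. The difference was 0.39 ± 0.074 (SE), or 1.31-fold with a 95% interval of 1.17 to 1.48 (limma, Benjamini-Hochberg adjusted p = 0.00309).

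The other two subunit genes, RELA and REL, did not pass. RELA encodes p65, the subunit with a strong transactivation domain that pairs with p50. Its level was 9.39, 9.42 and 9.53 in H69M, against 9.34, 9.28 and 9.20 in H69. The lines did not overlap, by a narrow margin. The difference was 0.17 ± 0.066 (SE), with a 95% interval of 0.018 to 0.32, an unadjusted p = 0.0331 and a limma adjusted p = 0.0700. RELA passed in 4 of 15 alternative settings, in which the adjusted p ran from 0.0323 to 0.193: arrays centred on their medians, eBayes with trend, and either filter on low levels.

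REL encodes c-Rel, a subunit best known from lymphocytes. Its level was 6.86, 6.90 and 7.03 in H69M, against 6.92, 6.68 and 6.80 in H69, and the lines overlapped. The difference was 0.13 ± 0.081 (SE), with a 95% interval of -0.058 to 0.32 (limma, Benjamini-Hochberg adjusted p = 0.234). The intervals of REL and RELA did not reach the interval of NFKB1, 1.72 to 2.30, or that of NFKB2, 0.63 to 0.94. Both overlapped the interval of RELB, 0.22 to 0.57, so RELB was not set apart from REL and RELA in this way.

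The feedback inhibitors differed from each other. TNFAIP3 encodes A20, a ubiquitin-editing enzyme that shuts down signalling from the tumour necrosis factor receptor and Toll-like receptors. Its level was 8.82, 8.72 and 8.37 in H69M, against 7.24, 7.27 and 6.89 in H69. All H69M arrays were more than 1 log2 unit above the H69 arrays, and H69M replicate 3, the highest array for ICAM1 and NFKB1, was the lowest here. The difference was 1.50 ± 0.14 (SE), or 2.83-fold with a 95% interval of 2.26 to 3.55 (limma, Benjamini-Hochberg adjusted p = 7.63e-05).

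NFKBIA encodes IkB-alpha, the inhibitor that is degraded and made anew in each round of canonical signalling. Its level was 10.16, 10.20 and 10.33 in H69M, against 10.13, 10.18 and 10.09 in H69, so the lines overlapped. The difference was 0.096 ± 0.066 (SE), with a 95% interval of -0.057 to 0.25 (limma, Benjamini-Hochberg adjusted p = 0.280). The upper end of that interval is far below the interval of TNFAIP3, 1.18 to 1.83. The windows of NFKBIA and ICAM1 hold the same 9 letters, 81 and 186 bases before their starts, and the differences were 0.096 for NFKBIA and 3.96 for ICAM1. Whether the letters bear on the level of either gene was not tested.

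Both measured target genes rose. ICAM1 encodes a cell surface ligand of leukocyte integrins and is induced by inflammatory cytokines in many cell types. Its level (probe set 8025601) was 9.27, 9.65 and 10.47 in H69M, against 5.77, 5.99 and 5.77 in H69. The H69M arrays were spread over more than 1 log2 unit, the widest spread of the 9 genes, and still lay far above H69. The difference was 3.96 ± 0.26 (SE), or 15.5-fold with a 95% interval of 10.1 to 23.8 (limma, Benjamini-Hochberg adjusted p = 1.24e-05). With all arrays in the fit, it exceeded the difference of 99.5% of all genes. Without H69M replicate 3 the difference of ICAM1 was 3.62.

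TNFAIP2, first found as a transcript induced by tumour necrosis factor, encodes a protein that takes part in forming membrane tubes between cells. Its level was 6.47, 6.47 and 6.69 in H69M, against 5.91, 6.09 and 5.90 in H69. The lines did not overlap. The difference was 0.58 ± 0.086 (SE), or 1.49-fold with a 95% interval of 1.30 to 1.71 (limma, Benjamini-Hochberg adjusted p = 0.000938).

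**Figure D2:**
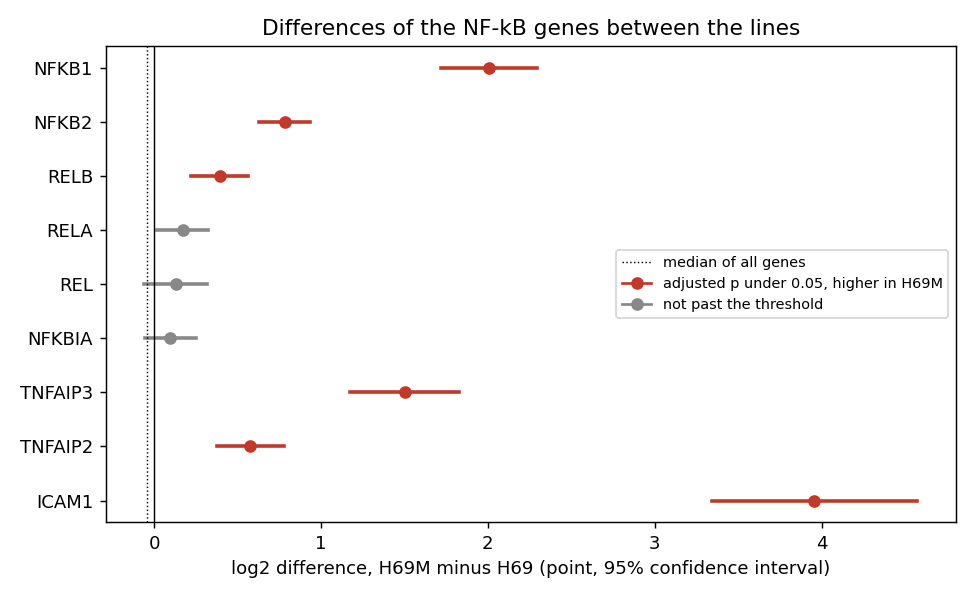
Log2 difference, H69M minus H69 (horizontal axis), of the 9 measured NF-kB genes, with 95% confidence intervals from limma; red marks the 6 genes past the adjusted p threshold and grey the 3 that were not. ICAM1, NFKB1 and TNFAIP3 stand above 1, and the intervals of REL and NFKBIA include 0.

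The levels of NFKB1, REL, RELB and TNFAIP2, as means over the 6 arrays, were below the median of all genes (7.16). ICAM1 (5.84), NFKB2 (6.85) and TNFAIP3 (7.13) were above that median in this mean, but their H69 means were below it. RMA values carry no detection call, so for all of these genes the true ratio may be larger than the one given. Each of the 9 genes had 1 probe set.

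The genes beside the NF-kB genes on their chromosomes differed in both directions, and the plot of neighbours shows them for 4 of the 9. The 5 measured genes on either side of each were taken in the RefSeq gene order. Among all genes, 21.0% were higher in H69M and 23.2% lower, and the counts of neighbours were not tested against these shares. Of the 10 neighbours of ICAM1, 9 did not pass and 1 rose, with a median of 0.033. These include ICAM4 (0.15) and ICAM5 (-0.020), the next genes in order and members of the same adhesion family, which did not pass; ICAM3 rose by 1.07.

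TNFAIP3 rose, while more of its neighbours fell than rose. Of its 10 neighbours, 5 were lower in H69M, 1 was higher and 4 did not pass, with a median of -0.27. ARFGEF3 had a difference of -1.92, SLC35D3 -1.57 and PERP, a p53-induced membrane protein gene next to TNFAIP3, -1.44. IFNGR1, which encodes a chain of the interferon gamma receptor, rose by 0.38.

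NFKB1 had 3 neighbours higher and 1 lower of 10, with a median of -0.073. The zinc transporter gene SLC39A8, next to it, rose by 1.49 and BDH2, the fifth gene on its other side, by 1.58, while the 4 genes between NFKB1 and BDH2 did not pass. NFKB2 had 1 neighbour higher and 3 lower, with a median of -0.039. NFKBIA, which did not pass, had 9 of 10 neighbours higher, with a median of 0.32.

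TNFAIP2 (0.58) had 4 of 10 neighbours higher and 2 lower, with a median of 0.18, and CDC42BPB, next to it, rose by 0.51. RELB (0.39) had 2 higher and 2 lower, with a median of -0.072, and NECTIN2, the fifth gene on one side, rose by 1.49, more than RELB itself. REL, which did not pass, had 5 higher and 1 lower, with a median of 0.16, and RELA, which did not pass, had 3 higher and 0 lower, with a median of 0.058. The neighbours named here were chosen after their values were seen.

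**Figure D3:**
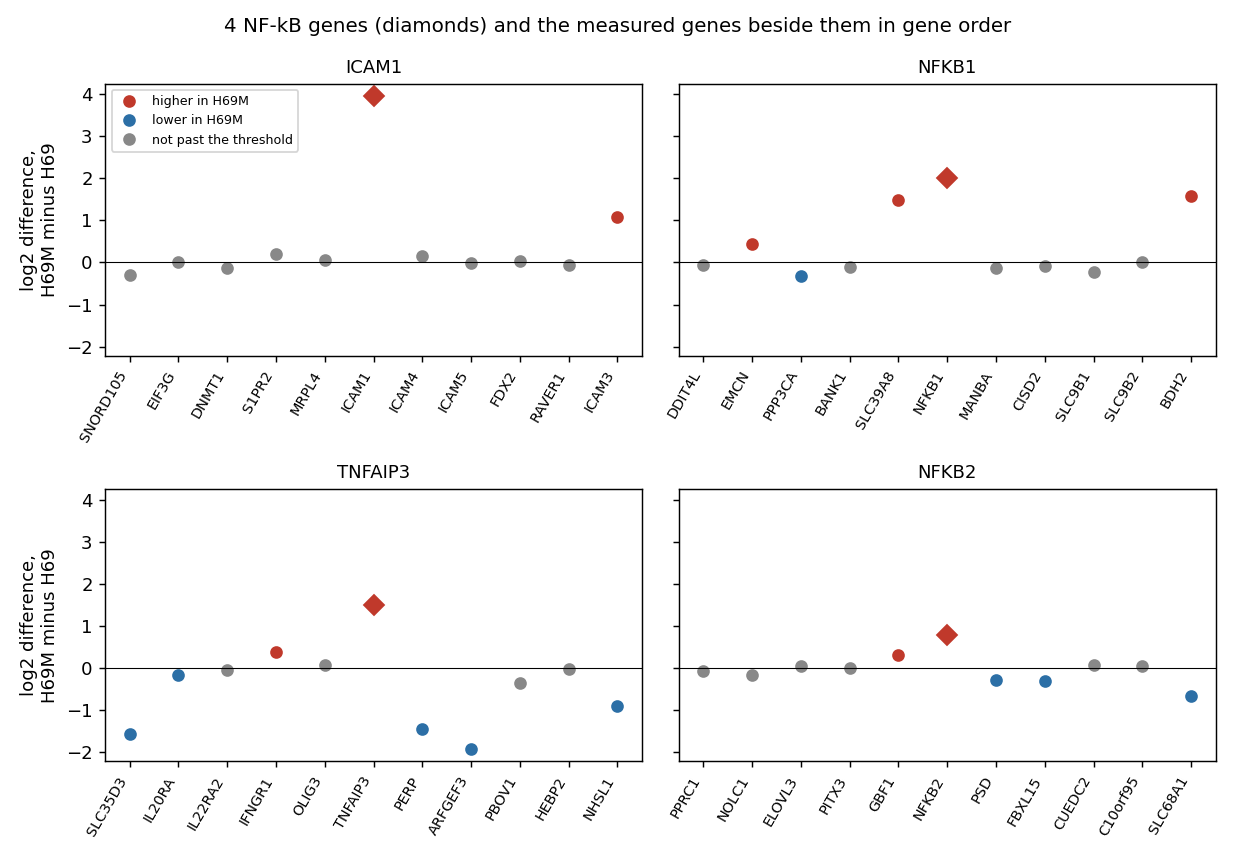
Log2 difference, H69M minus H69 (vertical axis), of ICAM1, NFKB1, TNFAIP3 and NFKB2 (diamonds) and of the measured genes beside each in gene order (circles); red is higher in H69M, blue lower, and grey did not pass. The diamond is the highest point of each panel, and 5 of the genes around TNFAIP3 are blue.

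The rest of the pathway was read from lists by role, and the counts below leave out the genes described above. These lists too were chosen with earlier results of these data known. Among receptors that signal to NF-kB, as many fell as rose: of 21 measured, 5 were higher and 5 lower, 23.8% each way against 21.0% higher and 23.2% lower of all genes (median 0.024). TNFRSF12A, the receptor of the cytokine TWEAK and an activator of both pathways, had a mean of 11.09 ± 0.18 in H69M and 7.75 ± 0.083 in H69 (SD, n = 3 each), a difference of 3.34 ± 0.098 (SE; limma, Benjamini-Hochberg adjusted p = 2.37e-07). TNFRSF9, known as 4-1BB, rose by 2.65, the interleukin-1 co-receptor gene IL1RAP by 2.25 and TNFRSF1A, the main tumour necrosis factor receptor, by 1.80. IL1RAP was uneven within H69M, at 5.70, 6.29 and 7.45, against 3.93, 4.30 and 4.47 in H69. Its mean level over both lines was below the 25th percentile of all genes. IL1R1, the interleukin-1 receptor proper, rose by 0.32 from a dim level (3.39 in H69M, 3.07 in H69). LTBR, the lymphotoxin receptor that feeds the non-canonical pathway, had a difference of -0.32 and passed, while CD40 (-0.15) and TLR3 (0.13) did not pass. TNFRSF11A, the receptor of RANK ligand, named after its value was seen, had the largest fall in the list, at -1.49. The count of 5 lower became 3 without H69 replicate 1, H69 replicate 3 or H69M replicate 2, and the count of 5 higher became 3 of 11 tested with genes below the 25th percentile of level left out.

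Of 9 measured ligand genes, 3 rose and 1 fell (median -0.085). This was 33.3% higher and 11.1% lower, against 21.0% and 23.2% of all genes. The interleukin-1 family supplied the rises: IL1B had a mean of 7.13 ± 0.45 in H69M and 4.82 ± 0.026 in H69 (SD, n = 3 each), a difference of 2.31, IL1A rose by 1.67 and IL18 by 1.08. TNF itself was lower in H69M, at 5.75, 5.45 and 5.60, against 6.42, 6.66 and 6.48 in H69. The difference was -0.92 ± 0.097 (SE; limma, Benjamini-Hochberg adjusted p = 0.000146). IL1A and IL18 are dim, and with genes below the 25th percentile of level left out 1 of 4 tested ligand genes rose and 2 fell.

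Of 19 measured adaptors and ubiquitin ligases, 10 rose and 2 fell (median 0.25). This was 52.6% higher and 10.5% lower, against 21.0% and 23.2% of all genes. BIRC2, which encodes the ligase cIAP1 and is the close relative of the BIRC3 product, rose by 1.06 ± 0.067 (SE), MYD88, the adaptor of interleukin-1 and Toll-like receptors, by 1.06 ± 0.087, MALT1, a protease of the antigen receptor branch, by 0.94 and TANK by 0.74. TRAF1, with a mean level over both lines below the 25th percentile of all genes, rose by 0.51. TRAF3, which holds NIK in check, had 0.26 and did not pass, and TRAF2 is not analysed here. The count of 2 lower became 1 in the fits that dropped H69M replicate 2 or 3, or that dropped H69 replicate 1 or 2.

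Of 13 measured genes of the IKK complex and its upstream kinases, 8 rose and 1 fell (median 0.27), each by less than 2-fold. This was 61.5% higher and 7.69% lower, against 21.0% and 23.2% of all genes. The catalytic subunit genes CHUK (-0.063) and IKBKB (-0.13) did not pass. The regulatory subunit gene IKBKG rose by 0.54, although its probes may also read a near-identical pseudogene. IKBKE rose by 0.83, RIPK2 by 0.80, TAB3 by 0.53 and MAP3K14, which encodes NIK, by 0.35. TBK1 had -0.24 (limma adjusted p = 0.0318), a call lost with the arrays centred on their medians and in 5 of the 6 fits that left out an array, all but the fit without H69M replicate 2; the list then had 0 genes lower.

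Inhibitors other than NFKBIA were mostly higher. Of the 5 other measured genes of the IkB family, 4 rose and 0 fell (median 0.61), where 21.0% of all genes rose and 23.2% fell. BCL3, an atypical IkB that binds p50 and p52 dimers in the nucleus, had a mean of 8.31 ± 0.067 in H69M and 7.15 ± 0.12 in H69 (SD, n = 3 each), a difference of 1.16. NFKBIZ, another nuclear member, rose by 0.99, NFKBID by 0.61 and NFKBIE, IkB-epsilon, by 0.26. In the wider list of negative feedback genes, 11 of 15 besides TNFAIP3 and NFKBIA rose and 0 fell (median 0.32). The share higher was 73.3%, against the same 21.0% of all genes. TNIP1, a partner of A20, rose by 1.67, its relative TNIP3 by 1.58, IRAK3, an inactive kinase that blocks MYD88 signalling, by 1.20, and the deubiquitinase gene CYLD by 0.76. NFKBIE is in both lists. The mean levels of TNIP3 and IRAK3 over both lines were below the 25th percentile of all genes.

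Genes in the list of other induced targets went both ways, more of them up. Of 68 measured genes, 33 rose, 7 fell and 28 did not pass (median 0.27). This was 48.5% higher and 10.3% lower, against 21.0% and 23.2% of all genes. The chemokine gene CCL2 had a mean of 11.37 ± 0.17 in H69M and 7.56 ± 0.45 in H69 (SD, n = 3 each), a difference of 3.80. The peptide transporter gene TAP1 rose by 3.58, PTGS2, the inducible cyclooxygenase, by 2.48 and PLAU, urokinase, by 2.36. IL6 rose by 0.87 and VCAM1 by 0.98, both with a mean level under 5 in H69M.

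Other well-known targets were lower or did not pass. CXCL8, which encodes interleukin-8, was 6.54, 6.16 and 6.19 in H69M, against 7.15, 7.33 and 7.31 in H69, a difference of -0.96 ± 0.11 (SE; limma, Benjamini-Hochberg adjusted p = 0.000213). SOD2, the mitochondrial superoxide dismutase, had -0.37 and passed. CXCL1 (0.15), CXCL2 (-0.086), CXCL3 (-0.097) and CCL20 (-0.037) did not pass; they were picked for mention with their values known, and the first 3 are near-identical genes whose probes may read each other. Several targets are also in the feedback, receptor and ligand lists, so these counts are not independent.

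**Figure D4:**
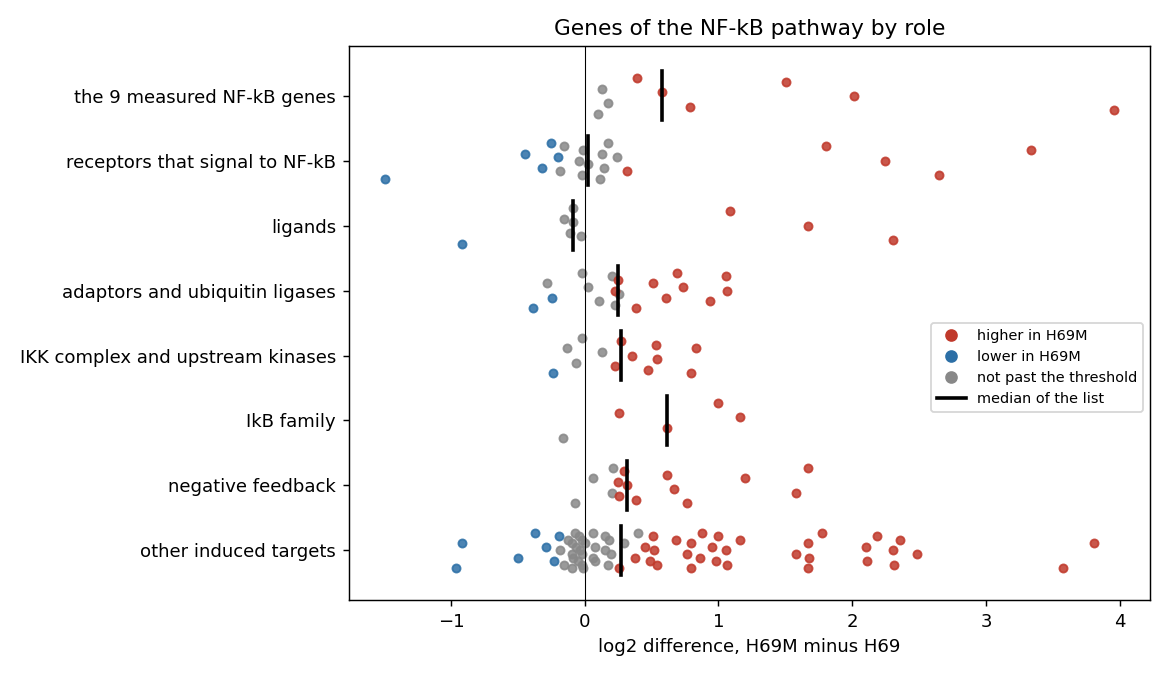
Log2 difference, H69M minus H69 (horizontal axis), of each measured gene of the pathway by role, without the 9 NF-kB genes in the lower rows; red is higher in H69M, blue lower, grey did not pass, and the black line is the median of the list. Medians lie near 0 for receptors and ligands and above 0.2 for the other lists.

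Most markers of fibroblasts were also higher in H69M. Of 12 measured fibroblast markers, 10 were higher and 0 lower in H69M, and their mean level per array was 7.82 to 8.23 in H69M and 5.36 to 5.43 in H69; the values of the whole list, added on the linear scale, came to 12.98 to 13.37 in H69M and 9.85 to 9.86 in H69 as log2. LUM had a mean of 10.36 in H69M and 3.58 in H69, whereas DPT (4.96 in both lines) and TCF21 (5.43 in H69M, 5.14 in H69) did not pass; these 3 were named with their values known. The RMA scale has no 0. Whether these genes and the NF-kB genes come from the same cells was not tested, and a change in the share of cells and a change in RNA per cell cannot be told apart in such samples.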

How the data were processed

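RNA from H69M and H69 was measured with 3 arrays of each line. The authors deposited log2 values per probe set; RMA and limma are named, without versions, per the submitters' processing notes, and they state neither a genome build nor which program computed the RMA values. The table held 32321 probe sets. Names came from the platform annotation: 19158 probe sets carried a single symbol and stood for 18404 genes, with the highest mean probe set taken where a gene had several. H69M was compared with H69 on all genes in R 4.3.3 with limma 3.58.1 (eBayes after lmFit, two-sided, group as the term), with Benjamini-Hochberg adjustment. Promoter windows and gene order came from RefSeq (GRCh38.p14). Python 3.11.15 with pandas 2.3.3, numpy 2.4.6 and matplotlib 3.10.9 was used for tables and plots.

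The members and lists were chosen with earlier results of these data known. Besides the listed genes, the text names up to 4 genes per list with the largest differences past the threshold and 28 measured genes of a fixed list of 29; others are said to be named after their values were seen. Alternatives tried were a replicate block, 2 other scalings, 2 filters on low levels, 3 variance or weight settings, the mean of probe sets, a fold threshold, and fits without each array. Precision is limited by the number of arrays: the median SE of a difference was 0.075. The spread behind the p-values is that between arrays and may be technical only. The code was tested on simulated data.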

Additional observations from a re-analysis of the deposited data

How the results depend on the processing

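The 6 calls among the 9 NF-kB genes held under every other scaling, variance setting and left-out array, with 0 genes lower in each: ICAM1 lay between 3.62 and 4.22, NFKB1 between 1.89 and 2.12, TNFAIP3 between 1.38 and 1.63, NFKB2 between 0.75 and 0.83, TNFAIP2 between 0.50 and 0.64, and RELB between 0.35 and 0.44 (highest limma adjusted p = 0.0141). Leaving out genes below the median level removed NFKB1, REL, RELB and TNFAIP2 from the test; ICAM1, TNFAIP3 and NFKB2 had H69 means below that level and stayed in the test through H69M, so their calls there add no support. RELA passed with arrays centred on their medians (0.20, limma adjusted p = 0.0462) and with eBayes trend (0.17, limma adjusted p = 0.0342). It also passed with genes below the 25th percentile (0.17, limma adjusted p = 0.0476) or below the median (0.17, limma adjusted p = 0.0323) left out. The filters change both the genes adjusted for and the variance fit. Why RELA passed was not tested in any of these settings. Under an added 2-fold requirement, the counts were 3 NF-kB genes higher, 1024 genes higher in all and 500 lower. Leaving out 1 array gave 6 NF-kB genes higher and 0 lower each time, 3318 to 3628 genes higher and 3521 to 4450 lower. The replicate numbers did not pair the arrays (correlations of deviations 0.021, 0.0072 and 0.0099 for replicates 1, 2 and 3); with the replicate block, 6 NF-kB genes were higher and 0 lower, RELB at an adjusted p = 0.0103. List counts moved by more than 1.5 times in 11 of 14 cases when the dimmer genes, those under the median level, were dropped. That filter itself cut the number of genes tested, from 68 to 20 for other induced targets. Moved counts alone therefore do not show whether the shares changed.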

Other observations

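Genes with kappaB letters around their start were counted over the whole table. Of 1212 measured genes with the 10-letter kappaB consensus in a RefSeq window of 300 bases, 26.6% were higher and 24.7% lower in H69M (limma, adjusted p threshold of 0.05), with a median difference of -0.024. Of 81 measured genes with the 9 letters GGAAATTCC on either strand, 35.8% were higher and 16.0% lower, with a median of 0.096; ICAM1, NFKB1, REL and NFKBIA are among them, and the letters were chosen after those windows had been seen. Of all 14230 measured genes with a window, 22.0% were higher and 23.1% lower, with a median of -0.0345. These shares are descriptions, and their differences were not tested.

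Within the list of other induced targets, 51 measured genes had a window. Of the 25 with the consensus, 12 were higher, 1 was lower and 12 did not pass, and of the 26 without it, 11 were higher, 4 were lower and 11 did not pass. All 5 measured genes of the IkB family with a window hold the consensus (NFKBIA, NFKBIB, NFKBIZ, NFKBID and BCL3); 3 of them rose, and NFKBIA (0.096) and NFKBIB (-0.16) did not pass; NFKBIB was named with its value known.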
